A study of Mus musculus with 21 samples.

Results

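Prl2c2 and Prl2c3 encode proliferins, secreted proteins of the prolactin family, and their transcripts were followed in cultured mouse mammary fibroblasts. Both genes were picked by name out of the 45706 genes of the deposited table, because earlier results of these data showed a strong rise after knockdown of Hsp90aa1 in fibroblasts of the normal gland and none in fibroblasts of the carcinoma. Their levels under that knockdown are therefore given as a description without a test. Tests were kept for comparisons that the choice did not use. Each of these still shares control libraries with the choice, so their p-values are not fully independent of it. Both passed the filter on low counts and were among the 15230 genes tested.

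The 21 RNA sequencing libraries form 7 groups of 3. NF libraries come from fibroblasts of normal mammary glands taken from FVB/n mice, labelled as the line NF1. CAF libraries come from fibroblasts of mammary carcinomas of MMTV-PyMT mice, labelled as the line CAF1, in which the mouse mammary tumour virus promoter drives the polyoma middle T oncogene in the mammary epithelium. Every culture was grown in DMEM with 10% serum and transfected with an siRNA pool at 100 nM, so the controls carry a control siRNA (siCtr) too. The 4 NF groups are siCtr with vehicle, siCtr with TGFb1, siHsp90aa1 with TGFb1 and siHsp90ab1 with TGFb1. TGFb1 was given at 5 ng/mL for 43 h. The 3 CAF groups are siCtr, siHsp90aa1 and siHsp90ab1, all with vehicle. NF with a knockdown and vehicle, or CAF with TGFb1, are not among the groups. Each cell origin is a single numbered line, so the origin and the line cannot be told apart, and the labels do not say whether the replicates are separate cultures or animals. The p-values hence measure the spread between these libraries, which may be technical.

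Prolactin family genes expanded greatly in rodents, where most members are made by the placenta and act on the mother's tissues and on blood vessel growth. Proliferin was first found as a transcript that serum and growth factors induce in cultured fibroblasts, and the secreted protein promotes the migration of endothelial cells. Its control region is a textbook case of a composite element at which AP-1 factors and the glucocorticoid receptor act together. HSP90 is a chaperone that keeps many kinases and steroid receptors, the glucocorticoid receptor included, in a form that can be activated. Hsp90aa1 encodes its inducible cytosolic isoform and Hsp90ab1 the constitutive one.

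The pair lies on chromosome 13 of GRCm38 (annotation GENCODE vM21). Prl2c3 (ENSMUSG00000056457) spans bases 12790816 to 12800079 and Prl2c2 (ENSMUSG00000079092) spans bases 12996125 to 13005383. Both are on the minus strand and are separated by 196 kb. Their main transcripts have 5 exons each and measure 842 bases for Prl2c2 and 857 bases for Prl2c3. The coding sequences are 672 bases long and differ at 3 positions, an identity of 99.6%. Counted from 1 at the A of the start codon, with the base of Prl2c2 first, the substitutions are T14C, C200A and T319G. These 3 stretches are shown because only fragments that cover such a difference, or that reach the untranslated ends, can tell the genes apart. The capital marks the differing base.

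Prl2c2, coding bases 1 to 34: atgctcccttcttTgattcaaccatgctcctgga
Prl2c3, coding bases 1 to 34: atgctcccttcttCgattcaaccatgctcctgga
Prl2c2, coding bases 180 to 220: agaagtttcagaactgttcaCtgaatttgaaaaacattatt
Prl2c3, coding bases 180 to 220: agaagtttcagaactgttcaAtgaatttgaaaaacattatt
Prl2c2, coding bases 299 to 339: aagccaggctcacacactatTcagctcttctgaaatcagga
Prl2c3, coding bases 299 to 339: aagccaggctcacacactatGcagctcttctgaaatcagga

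Over the whole main transcripts the identity was 97.8%. Of all windows of 50 bases in the main Prl2c2 transcript 80.1% were also found in any annotated transcript of Prl2c3. Of windows of 100 bases 63.5% were. The deposited counts are estimates that divide such shared reads between genes, so the division between Prl2c2 and Prl2c3 is uncertain. The sum of both genes does not depend on that division and is reported beside them. The next most similar gene, Prl2c5 (ENSMUSG00000055360), shared 18.5% of the Prl2c2 windows of 50 bases and 2.83% of those of 100 bases.

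Levels are given as normalised CPM, that is, counts scaled to a common library size with TMM factors, with the mean and SD over 3 libraries. In NF with vehicle Prl2c2 stood at 246, 207 and 212 CPM in replicates 1 to 3 (221 ± 21.4). With TGFb1 it stood at 44.1, 37.1 and 12.6 CPM (31.3 ± 16.5). These groups did not overlap, and replicate 3 with TGFb1 was the lowest of all 21 libraries. With TGFb1 and siHsp90aa1 the values were 274, 195 and 122 CPM (197 ± 76.1). With TGFb1 and siHsp90ab1 they were 44.5, 49.2 and 25.9 CPM (39.9 ± 12.3). The siHsp90aa1 libraries spread around the vehicle level, and the siHsp90ab1 libraries overlapped those with TGFb1 alone.

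In CAF the controls stood at 56.5, 37.0 and 38.7 CPM of Prl2c2 (44.1 ± 10.8). With siHsp90aa1 the values were 32.8, 23.8 and 20.6 CPM (25.7 ± 6.30). With siHsp90ab1 they were 70.2, 38.6 and 40.2 CPM (49.7 ± 17.8). Replicate 1 was the highest library in each CAF group, and each of the 9 CAF libraries was below each NF library with vehicle.

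Prl2c3 gave fewer counts than Prl2c2 in every library. In NF it stood at 20.3, 14.9 and 10.9 CPM with vehicle (15.4 ± 4.67) and at 5.35, 3.47 and 1.47 CPM with TGFb1 (3.43 ± 1.94). With TGFb1 and siHsp90aa1 it stood at 29.9, 14.3 and 8.51 CPM (17.6 ± 11.1), and with TGFb1 and siHsp90ab1 at 5.33, 4.85 and 2.78 CPM (4.32 ± 1.36). As for Prl2c2, the vehicle and siHsp90aa1 libraries were high and the other NF libraries low, without overlap. In CAF the values were 17.2, 9.97 and 12.2 CPM in controls (13.1 ± 3.69), 5.76, 4.54 and 4.09 CPM with siHsp90aa1 (4.80 ± 0.863) and 16.1, 6.49 and 8.17 CPM with siHsp90ab1 (10.3 ± 5.15). CAF controls overlapped NF with vehicle here, which they did not for Prl2c2.

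Summed, the pair had 237 ± 25.5 CPM in NF with vehicle, 34.7 ± 18.4 CPM with TGFb1, 214 ± 86.9 CPM with TGFb1 and siHsp90aa1 and 44.2 ± 13.6 CPM with TGFb1 and siHsp90ab1. In CAF the sums were 57.2 ± 14.4 CPM in controls, 30.5 ± 7.16 CPM with siHsp90aa1 and 59.9 ± 22.9 CPM with siHsp90ab1. For Prl2c2 and for the sum the groups fell in the same order of means. NF with vehicle and NF with siHsp90aa1 came first and overlapped. After a gap without overlap came CAF with siHsp90ab1, CAF controls, NF with siHsp90ab1, NF with TGFb1 and CAF with siHsp90aa1, each of which overlapped the next. For Prl2c3 the order was NF with siHsp90aa1, NF with vehicle, CAF controls and CAF with siHsp90ab1, then, after a gap, CAF with siHsp90aa1, NF with siHsp90ab1 and NF with TGFb1.

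**Figure D1:**
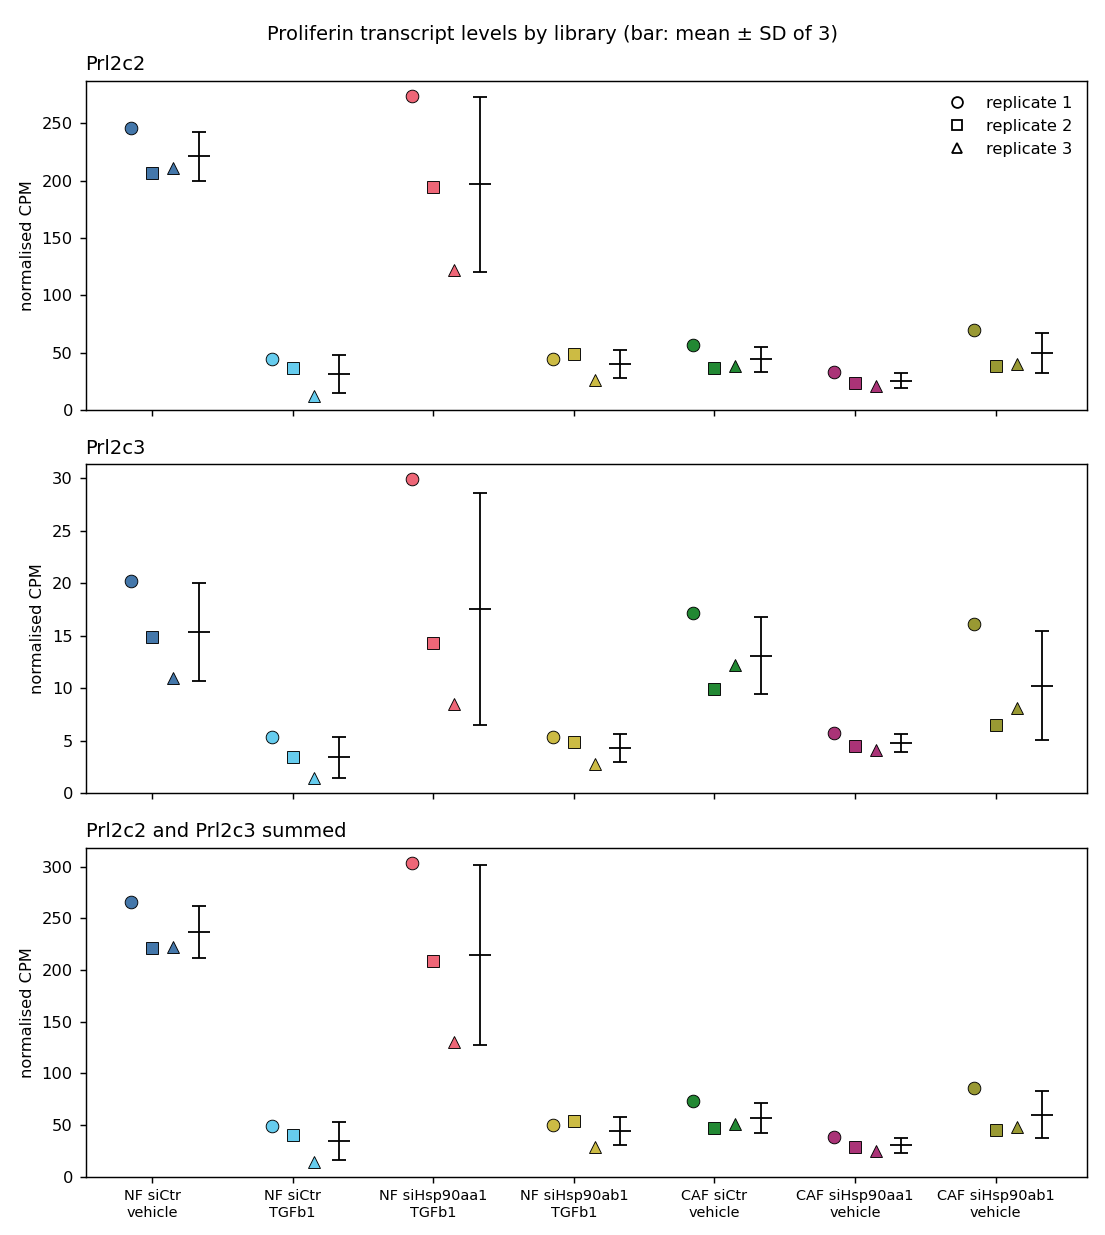
Normalised CPM of Prl2c2, Prl2c3 and their sum (vertical axes, linear from 0) in the 21 libraries by group; each symbol is a library and the bar is the mean with its SD over 3. The NF groups with vehicle and with siHsp90aa1 plus TGFb1 stand above the others for Prl2c2, with means of 221 and 197 CPM, while for Prl2c3 the CAF controls, at 13.1 CPM, reach the range of NF with vehicle.

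In TPM, a unit that corrects for transcript length and so allows the genes to be compared, Prl2c2 had a level of 577 ± 25.5 TPM in NF with vehicle and Prl2c3 a level of 38.6 ± 8.10 TPM. The CAF controls had 122 ± 29.6 TPM of Prl2c2 and 35.3 ± 9.84 TPM of Prl2c3. The ratio of Prl2c2 to Prl2c3 in TPM ranged from 3.25 in a CAF control library to 19.8 in replicate 3 of NF with vehicle. Prl2c2 was the more abundant transcript in all 21 libraries.

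TGFb1 in NF lowered both proliferin transcripts. Prl2c2 was left at 14.1% of its vehicle level and Prl2c3 at 22.3%. Of all genes tested, 14.4% were lower with TGFb1 and 14.6% higher at an adjusted p under 0.05 in edgeR's quasi-likelihood test, and both proliferin genes were among the lower ones. Neither gene overlapped between the groups, as held for 19.9% of all genes in this direction. The log2 fold change of Prl2c2 was -2.82 ± 0.40 (SE; edgeR adjusted p = 3.41e-05), with a 95% interval from -3.67 to -1.97. That of Prl2c3 was -2.16 ± 0.47 (edgeR adjusted p = 0.0021) and that of the sum -2.77 ± 0.40 (edgeR adjusted p = 5.08e-05). Within equal replicate numbers Prl2c2 was lower by log2 values of -2.48, -2.48 and -4.07, so the fall held in 3 of 3 pairs and was deepest in replicate 3. Fewer cells that express a gene and less RNA per cell cannot be told apart in such bulk samples. The control libraries with TGFb1 also serve as the reference of the knockdowns in NF, including the one by which the genes were chosen. A choice for a rise over these controls favours genes that are low in them, and the p-values do not allow for that.

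CAF with control siRNA and vehicle held less Prl2c2 than NF under the same treatment, and no such difference passed for Prl2c3. Prl2c2 was 5.02-fold lower in CAF, with a log2 difference of -2.33 ± 0.39 (SE; edgeR adjusted p = 4.77e-05) and lower values in 3 of 3 pairs of equal replicate number. Prl2c3 had a log2 difference of -0.23 ± 0.44 (edgeR adjusted p = 0.678), with a 95% interval from -1.17 to 0.72, and was lower in CAF in replicates 1 and 2 and higher in replicate 3. The sum followed Prl2c2, at -2.05 ± 0.39 (edgeR adjusted p = 0.000192). This contrast called many genes, with 30.0% of all genes tested lower and 31.6% higher in CAF. A lower value in CAF was thus a common call. Prl2c2 did not overlap between the groups, as held for 29.8% of genes in this direction, and Prl2c3 did. The CAF controls are also the reference of siHsp90aa1 in CAF, which the choice used.

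Knockdown of Hsp90aa1 in NF with TGFb1 raised the proliferin transcripts, the change by which they were chosen. Prl2c2 was 6.29-fold and Prl2c3 5.12-fold the level with TGFb1 and control siRNA, and the sum was 6.18-fold. By replicate number the Prl2c2 ratios were 6.21, 5.25 and 9.64, and the Prl2c3 ratios 5.59, 4.12 and 5.81. Replicate 3, the library pair with the lowest levels, gave the largest ratio for both genes. The log2 fold change of Prl2c3 was 2.35 over all libraries and 1.73 without siHsp90aa1 replicate 1, the highest library. Neither gene overlapped between the groups, as held for 24.2% of all genes tested in the upward direction. Hsp90aa1 itself stood at 671, 606 and 543 CPM in the controls and at 40.2, 65.5 and 120 CPM with its siRNA.

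The level reached with TGFb1 and siHsp90aa1 can be set beside that of NF with vehicle. Prl2c2 stood at 88.9% of the vehicle mean, Prl2c3 at 114% and the sum at 90.5%. With TGFb1 and control siRNA the same shares were 14.1%, 22.3% and 14.7%, and with TGFb1 and siHsp90ab1 18.0%, 28.1% and 18.7%. By replicate number the siHsp90aa1 shares of Prl2c2 ran from 57.6% in replicate 3 to 111% in replicate 1. Since no NF library combined a knockdown with vehicle, an effect of siHsp90aa1 without TGFb1 was not measured.

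In CAF with vehicle both transcripts were lower with siHsp90aa1. Prl2c2 stood at 58.4% of its control, Prl2c3 at 36.6% and the sum at 53.4%. Prl2c2 ratios by replicate number were 0.580, 0.643 and 0.533, and neither gene overlapped between the groups, as held for 19.5% of all genes tested in the downward direction. Hsp90aa1 went from 995, 926 and 726 CPM to 122, 85.9 and 58.1 CPM. The Hsp90aa1 that remained made up 12.4% of the NF control level and 10.0% of that in CAF. The proliferin genes thus moved in opposite directions under one siRNA in cells that also differed in their TGFb1 treatment, so the cell line and the cytokine cannot be told apart here.

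**Figure D2:**
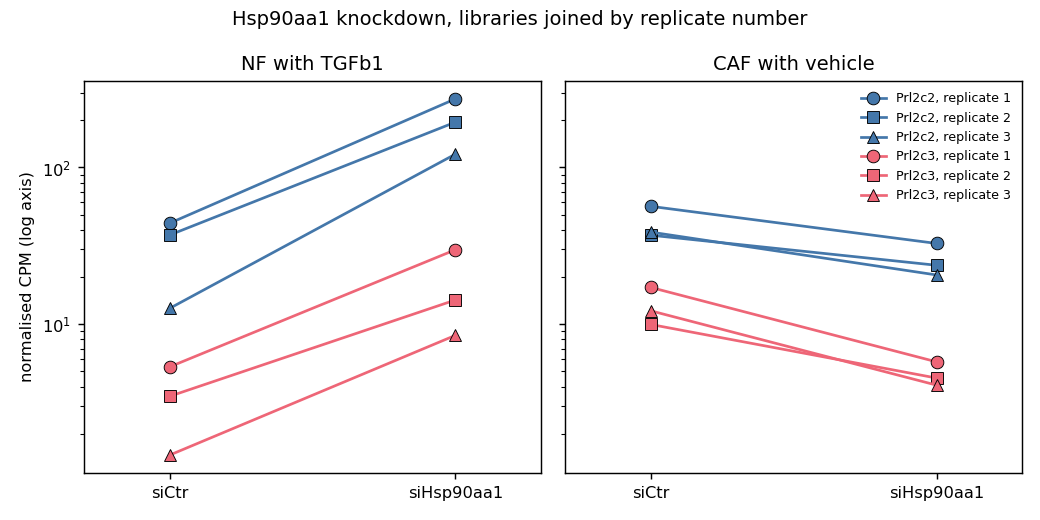
Normalised CPM (log axis) of Prl2c2 and Prl2c3 with control siRNA and with siHsp90aa1, with libraries of equal replicate number joined by lines, in NF with TGFb1 (left) and CAF with vehicle (right). All 6 lines go up in NF, where Prl2c2 ended 6.29-fold higher, and all 6 go down in CAF, where it ended at 58.4% of the control.

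Knockdown of Hsp90ab1 gave no called change of the proliferin genes in either line. In NF with TGFb1 the log2 fold change was 0.34 ± 0.38 for Prl2c2 (SE; edgeR adjusted p = 0.806) and 0.32 ± 0.48 for Prl2c3 (edgeR adjusted p = 0.87), and 0.34 ± 0.38 for the sum (edgeR adjusted p = 0.81). The 95% interval ran from -0.46 to 1.15 for Prl2c2 and from -0.70 to 1.34 for Prl2c3. In this contrast 1.06% of all genes tested were called higher and 1.62% lower, and 0 of the 2 proliferin genes had an unadjusted p under 0.05. Hsp90ab1 itself was lowered to 13.3% of its level in NF and to 9.96% in CAF, while Hsp90aa1 stood at 48.1% and 47.6% under siHsp90ab1.

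In CAF with siHsp90ab1 the log2 fold change was 0.17 ± 0.37 for Prl2c2 (SE; edgeR adjusted p = 0.981; 95% interval from -0.63 to 0.97), -0.36 ± 0.45 for Prl2c3 (edgeR adjusted p = 0.94) and 0.07 ± 0.38 for the sum (edgeR adjusted p = 0.999). The share of all genes called was 0.466% higher and 0.433% lower, and again 0 of the 2 genes had an unadjusted p under 0.05. The effect of siHsp90ab1 in CAF minus that in NF was -0.18 ± 0.53 on the log2 scale for Prl2c2 (edgeR adjusted p = 1), -0.68 ± 0.65 for Prl2c3 and -0.28 ± 0.54 for the sum. Of all genes tested 0.00657% passed upward for this difference and 0% downward.

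The balance of the pair also differed between the lines. Prl2c3 made up 7.61%, 6.74% and 4.92% of the summed counts in the replicates of NF with vehicle, 10.8%, 8.57% and 10.4% with TGFb1, 9.84%, 6.84% and 6.53% with TGFb1 and siHsp90aa1 and 10.7%, 8.98% and 9.67% with TGFb1 and siHsp90ab1. In CAF its share was 23.3%, 21.3% and 23.9% in controls, 14.9%, 16.0% and 16.5% with siHsp90aa1 and 18.7%, 14.4% and 16.9% with siHsp90ab1. Every CAF library had a larger Prl2c3 share than every NF library. The group means ran from 6.42 ± 1.37% in NF with vehicle to 22.8 ± 1.40% in CAF controls, and within CAF neither knockdown group overlapped the controls. This share rests on how the counting software divided reads between near-identical transcripts, and it was not tested.

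**Figure D3:**
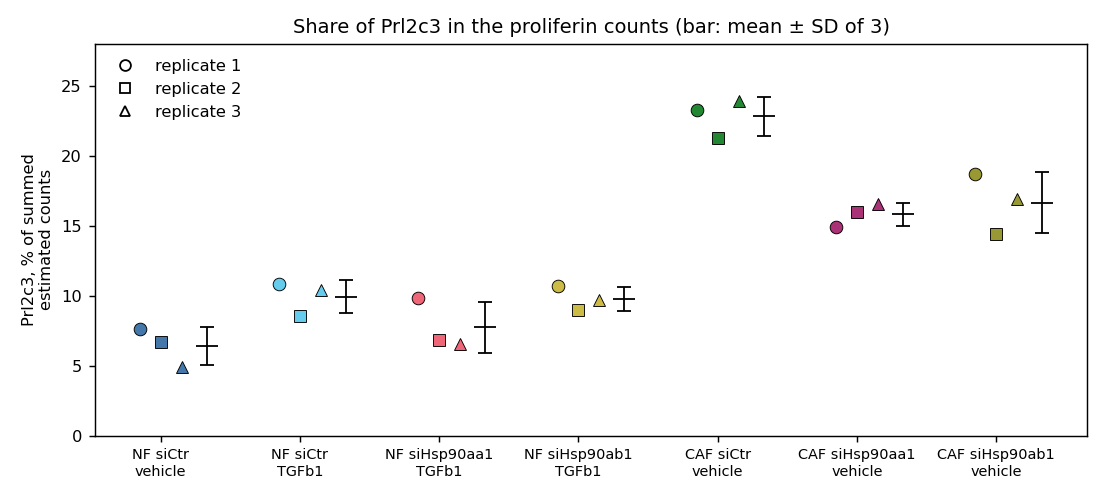
Share of Prl2c3 in the summed estimated counts of Prl2c2 and Prl2c3 (vertical axis, percent) in each library by group, with the mean and SD over 3. NF libraries lie between 4.92% and 10.8% and CAF libraries between 14.4% and 23.9%.

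Prl2c5, another proliferin gene, was barely expressed, with 0 to 40 estimated counts per library. It stood at 0.662, 0.314 and 0.706 CPM in NF with vehicle and at 0.111, 0.0909 and 0 CPM with TGFb1. With TGFb1 and siHsp90aa1 it stood at 0.322, 0.148 and 0.272 CPM, and in CAF controls at 0.118, 0.115 and 0.0573 CPM. It fell with TGFb1 in NF (log2 -2.95 ± 0.56, edgeR adjusted p = 0.00061) and was lower in CAF than in NF (-2.52 ± 0.53, edgeR adjusted p = 0.000461). Prl2c5 rose with siHsp90aa1 in NF (1.75 ± 0.60, edgeR adjusted p = 0.035) and fell with it in CAF (-2.57 ± 0.87, edgeR adjusted p = 0.0368), where the siHsp90aa1 libraries held 0 to 1.01 estimated counts. The NF call was lost without a filter on low counts, and the CAF call was lost without that filter and in DESeq2. Prl2c5 passed the filter only through NF with vehicle and with siHsp90aa1, where it was high. In all other groups it stood at 0.118 CPM or less. Its calls between high and low groups are therefore partly set by the filter. Prl2c5 went the way of Prl2c2 in these 4 comparisons, but part of its sequence is shared with the far more abundant pair, so the origin of its few counts is uncertain. Prl2c1 (ENSMUSG00000062551), which lies farther along chromosome 13 at bases 27849342 to 27857788, had at most 2.00 estimated counts in a library and was not tested.

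The start regions of Prl2c3 and Prl2c5 are shown because both genes fell with TGFb1 and rose with siHsp90aa1 in NF. Of the 4 Prl2c genes in the deposited table, 2 were matched in RefSeq's table of promoters (GRCm38.p6). Each sequence holds the 250 bases before the transcription start, 5′ to 3′ on the gene's own strand, and capitals mark bases that differ in an alignment of the pair. The Prl2c3 region is chr13:12800080-12800329 on the minus strand and the Prl2c5 region is chr13:13182466-13182715 on the plus strand.

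Prl2c3: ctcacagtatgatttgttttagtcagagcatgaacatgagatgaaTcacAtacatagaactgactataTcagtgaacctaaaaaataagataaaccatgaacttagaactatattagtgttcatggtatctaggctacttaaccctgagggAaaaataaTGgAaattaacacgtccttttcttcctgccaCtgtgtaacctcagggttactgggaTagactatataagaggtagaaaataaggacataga
Prl2c5: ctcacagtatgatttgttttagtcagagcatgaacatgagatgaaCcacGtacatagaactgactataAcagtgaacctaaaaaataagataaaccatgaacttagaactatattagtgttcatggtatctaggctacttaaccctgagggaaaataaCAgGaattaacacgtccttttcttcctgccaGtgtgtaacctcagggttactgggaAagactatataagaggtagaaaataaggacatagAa

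The sequences were 96.0% identical, with 10 differing columns, 2 of them gaps. Motifs were searched on both strands in windows of 300 bases that also hold the first 50 bases of the transcript. The AP-1 site TGACTCA, the glucocorticoid receptor motif AGAACA, the SMAD box GTCTAGAC, the TATA box TATAAA and the CArG box were in neither window. They were found in 5.2%, 19.0%, 0.213%, 13.6% and 1.63% of the 32851 promoters of the table. A heat shock element, GAANNTTC or TTCNNGAA, occurred in Prl2c5 and in 15.1% of promoters, and the STAT motif TTCNNNGAA occurred in Prl2c3 and in 8.3%. Both matches began 26 bases after the start, at the same base of the window. Only these letters were searched, so variants such as tatataag, which both sequences hold before the start, were not counted. A missing string therefore does not mean that the element is missing. These letter matches describe the windows and say nothing about binding.

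The rest of the prolactin family was scarcely detected in these fibroblasts. Of 26 other family genes listed, 25 had a row in the table, and Prl2c5 was the only one to pass the filter on low counts. The other 24 had at most 13.0 estimated counts in a library and at most 0.855 TPM, and 1 had no count at all. Of 11 other placental genes 1 passed the filter and 5 had no count. The gene that passed, Plac1, was higher in CAF than in NF (log2 1.78 ± 0.44, edgeR adjusted p = 0.00188).

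Among 11 genes for receptors of prolactin-like hormones and their signalling, Prlr, the prolactin receptor gene, did not pass the filter, and 10 were tested. Ghr, the growth hormone receptor gene, was higher in CAF than in NF (log2 2.26 ± 0.11, edgeR adjusted p = 6e-12). Socs2, a feedback inhibitor of the growth hormone receptor, rose with TGFb1 in NF from 11.3 to 63.8 CPM (2.50 ± 0.23, edgeR adjusted p = 2.22e-07) and fell with siHsp90aa1 to 36.5 CPM (-0.81 ± 0.21, edgeR adjusted p = 0.00903). In CAF it rose with siHsp90aa1 (1.04 ± 0.21, edgeR adjusted p = 0.00163). So Socs2 ran opposite to the proliferin genes in all 3 of these comparisons. Igf2r, which encodes the mannose 6-phosphate and IGF2 receptor that has been described to bind proliferin, rose with siHsp90aa1 in NF (0.50 ± 0.09, edgeR adjusted p = 0.000439) and in CAF (0.46 ± 0.09, edgeR adjusted p = 0.00101).

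By comparison, 1 receptor and signalling gene rose and 2 fell with TGFb1, among them Jak2 (-0.35 ± 0.11, edgeR adjusted p = 0.0176), a kinase that carries the signal of these receptors. Over all genes tested 14.6% rose and 14.4% fell. Between CAF and NF 3 were higher and 7 lower, against 31.6% and 30.0% of all genes, with Jak2 at -1.32 ± 0.11 (edgeR adjusted p = 6.84e-09). With siHsp90aa1 2 rose and 1 fell in NF, and 3 rose and 0 fell in CAF. For the last contrasts the background was 14.8% higher and 13.5% lower in NF, and 12.5% higher and 12.9% lower in CAF. With siHsp90ab1 Ghr fell in NF (-0.56 ± 0.11, edgeR adjusted p = 0.00622), and in CAF edgeR called 0 of 10, with 3 at an unadjusted p under 0.05 and 1 called by DESeq2. The median log2 fold change of the list was -0.22 with TGFb1 and 0.24 with siHsp90aa1 in NF, against -0.03 and 0.01 over all genes tested.

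Of 10 AP-1 genes, which encode the Fos, Jun and Atf proteins that bind as pairs, 9 were tested. With TGFb1 in NF Junb rose from 127 to 296 CPM (1.23 ± 0.28, edgeR adjusted p = 0.00314) and 0 fell, against 14.6% and 14.4% of all genes, with a list median of 0.10. With siHsp90aa1 in NF, edgeR called 0 of 9, with 1 at an unadjusted p under 0.05, and DESeq2 called 1 lower, with a list median of -0.01. Junb stood at 222 CPM there. In CAF with siHsp90aa1 Atf3 rose (1.34 ± 0.37, edgeR adjusted p = 0.0128) and Fosl2 fell (-0.43 ± 0.14, edgeR adjusted p = 0.0313). Between CAF and NF 2 were higher and 3 lower, against 31.6% and 30.0% of all genes, with Atf3 at -2.51 (edgeR adjusted p = 1.04e-05). With siHsp90ab1 edgeR and DESeq2 called 0 of 9 in both lines, and 1 in NF and 0 in CAF had an unadjusted p under 0.05.

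The glucocorticoid receptor and its known target genes gave 11 tested genes of 12. TGFb1 in NF lowered 6 and raised 2, against 14.4% and 14.6% of all genes tested, with a list median of -0.52 against -0.03. Cebpd, a transcription factor gene induced by glucocorticoids, fell from 43.2 to 10.2 CPM (-2.08 ± 0.25, edgeR adjusted p = 4.93e-06). With siHsp90aa1 in NF 3 rose and 1 fell, against 14.8% and 13.5% of all genes, with a list median of 0.29 against 0.01. Cebpd rose to 20.4 CPM (1.00 ± 0.24, edgeR adjusted p = 0.00503), while Fkbp5, an HSP90 co-chaperone gene that glucocorticoids induce, fell (-0.75 ± 0.17, edgeR adjusted p = 0.00346). Fkbp5 fell in CAF as well (-0.48, edgeR adjusted p = 0.0451), where 2 other genes rose, Klf9 (0.46, edgeR adjusted p = 0.0147) and Tsc22d3 (0.63, edgeR adjusted p = 0.0398). Between CAF and NF 2 were higher and 3 lower, below the 31.6% and 30.0% of all genes, with Nr3c1, the receptor gene itself, higher in CAF (1.10) and Cebpd lower (-2.11). With siHsp90ab1 edgeR and DESeq2 called 0 of 11 in both lines, with 2 in NF and 0 in CAF at an unadjusted p under 0.05.

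Only some genes near the proliferin pair could be tested. Of 47 annotated genes with a start within 500 kb of either gene, 8 were protein-coding and 9 passed the filter, Prl2c5 among them. Many of the 47, mostly pseudogenes, had no row in the deposited table and so were not measured. Actn2 was the only protein-coding neighbour that did not pass. Prl2c5 shares sequence with the pair and passed through groups where it was high, so it is no independent neighbour. With TGFb1 in NF 6 of the 9 tested neighbours fell and 0 rose, against 14.4% and 14.6% of all genes tested. Those 6 include Prl2c5, Gpr137b and Gpr137b-ps, by its name a pseudogene of Gpr137b. They are therefore not 6 independent genes. The median log2 fold change of the 9 was -0.91, against -0.03 over all genes. DESeq2 and the replicate block each called 7 of them lower, and the fit without a filter on low counts 6. Nid1, the gene of the basement membrane protein nidogen, went from 2000.0 to 737 CPM (-1.44 ± 0.15, edgeR adjusted p = 8.45e-07). Gpr137b, a gene of a lysosomal membrane protein, went from 131 to 52.9 CPM (-1.31 ± 0.20, edgeR adjusted p = 8.38e-05). Ero1lb, for an oxidase of the endoplasmic reticulum, fell as well (-0.93, edgeR adjusted p = 0.000567).

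With siHsp90aa1 in NF 5 of the 9 neighbours rose and 0 fell, against 14.8% and 13.5% of all genes tested. Their median was 0.55, against 0.01 over all genes. They were Gpr137b (1.08 ± 0.20, edgeR adjusted p = 0.000732), Ero1lb (0.70, edgeR adjusted p = 0.00625), Lgals8 (0.60, edgeR adjusted p = 0.000954), Nid1 (0.42 ± 0.14, edgeR adjusted p = 0.0357) and Prl2c5. DESeq2 called 6 neighbours higher, the replicate block 5 and the fit without a filter on low counts 4. In the same contrast Prl2c2 stood at 2.65 and Prl2c3 at 2.35, and Heatr1 and Edaradd were among the 4 neighbours that did not pass in edgeR. In CAF with siHsp90aa1 1 rose and 2 fell, against 12.5% and 12.9% of all genes, with Lgals8 at 0.33 (edgeR adjusted p = 0.0419) and Nid1 at -0.98 (edgeR adjusted p = 0.000127). These CAF counts were 1 and 1 in DESeq2, 1 and 3 with the replicate block and 0 and 1 without a filter on low counts. The share of all genes called under these alternatives was not counted. Between CAF and NF 7 of 9 were lower and 0 higher, against 30.0% and 31.6% of all genes, with a median of -1.06. Those 7 include both Gpr137b and Gpr137b-ps. They also include Prl2c5 and Edaradd, which passed the filter through NF, so a lower call in CAF was favoured. Group means of Edaradd were 0.798 to 1.52 CPM in NF and 0.0404 to 0.141 CPM in CAF. With siHsp90ab1 edgeR and DESeq2 called 0 of 9 in both lines, with 2 in NF and 0 in CAF at an unadjusted p under 0.05.

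**Figure D4:**
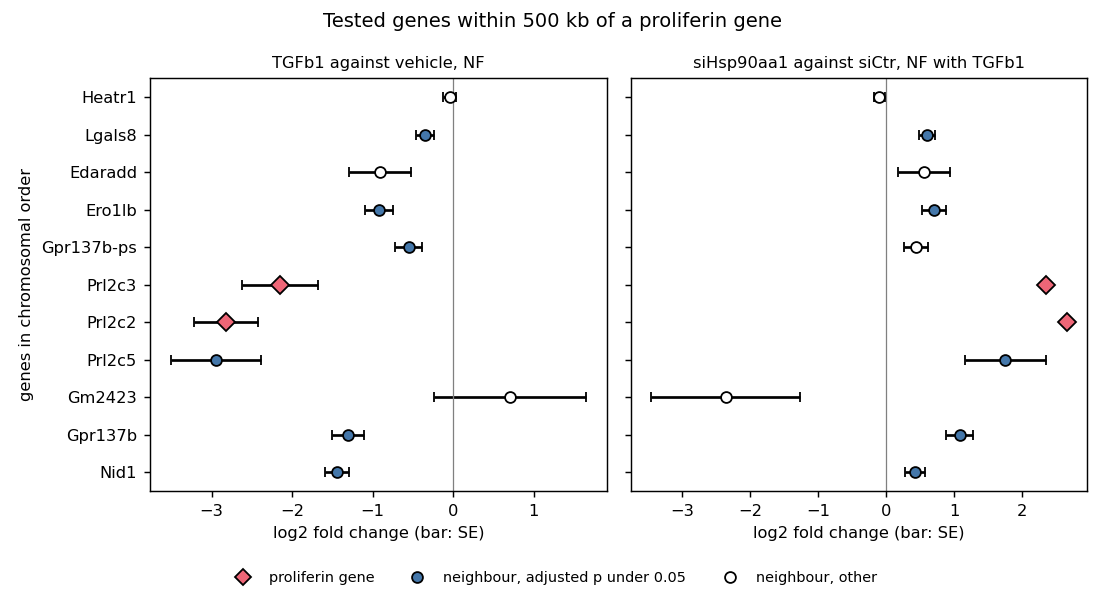
Log2 fold changes (horizontal axes, bars are SE) of the tested genes within 500 kb of Prl2c2 or Prl2c3, in chromosomal order, for TGFb1 against vehicle (left) and siHsp90aa1 against control siRNA with TGFb1 (right), both in NF; the proliferin genes carry no bar on the right because they were chosen by that contrast. On the left 6 of the 9 neighbours fell, against 14.4% of all genes tested. On the right 5 rose, against 14.8%. Both counts include Prl2c5, and the left one includes both Gpr137b and its pseudogene Gpr137b-ps.

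The genes whose pattern over the 7 group means was most like that of the summed pair were found by the smallest root mean square difference of centred log2 CPM, among genes with at least 5 CPM in their highest group. The closest was Apln (0.41 log2 units), which encodes the vascular peptide apelin, with 8.77 CPM in NF with vehicle, 1.44 CPM with TGFb1, 5.71 CPM with TGFb1 and siHsp90aa1, 1.71 CPM with TGFb1 and siHsp90ab1, 3.46 CPM in CAF controls, 1.47 CPM with siHsp90aa1 and 4.05 CPM with siHsp90ab1. It shared the low value of CAF with siHsp90aa1. After it came Crocc2 (0.47), Pik3r5 (0.50), Il18 (0.53), Cebpd (0.54), Gsta4 (0.54), Sord (0.54), Xdh (0.56), Vgf (0.57) and Fam46c (0.58).

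Gsta4, a glutathione transferase gene, stood at 324 CPM in NF with vehicle, 59.2 CPM with TGFb1, 182 CPM with TGFb1 and siHsp90aa1 and 45.9 CPM in CAF controls. Xdh, the xanthine dehydrogenase gene, stood at 548, 209, 517 and 182 CPM in the same groups. In CAF with siHsp90aa1 the log2 fold change was -1.23 for Apln and -1.04 for Gsta4, near the value of -0.91 for the summed pair, and between -0.05 and -0.37 for the other 8. Measured over the 21 libraries in place of the group means, 8 of these 10 genes stayed among the nearest 10, and Crocc2 and Gsta4 moved to ranks 31 and 57.

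**Figure D5:**
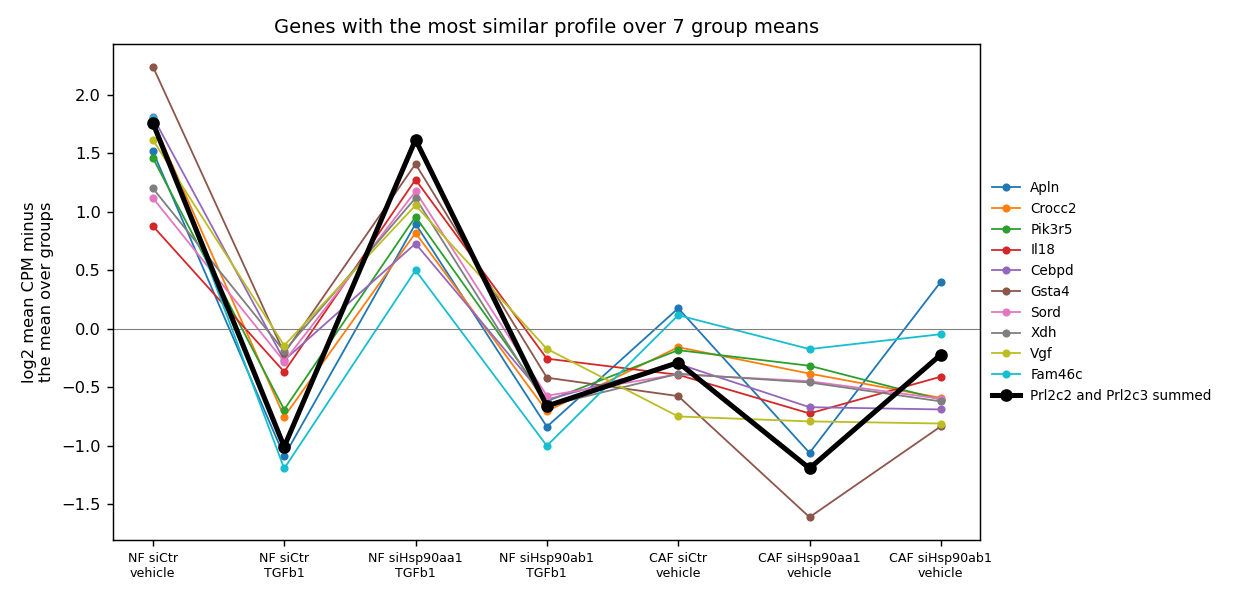
Log2 mean CPM minus its mean over the 7 groups (vertical axis) for the summed proliferin pair (black) and the 10 genes with the most similar profile. All are high in NF with vehicle and in NF with siHsp90aa1 plus TGFb1, and Apln and Gsta4 share the low value of the pair in CAF with siHsp90aa1. The genes were picked for likeness over these same groups, so the shared pattern follows from the choice.

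Library totals ranged from 35087180 to 70421576 estimated counts, and mitochondrial genes took 1.67% to 4.3% of them, most in NF with vehicle replicate 1. All 9 fibroblast markers passed the filter, and their summed level was 7790 to 10500.0 CPM in NF with vehicle, 17200.0 to 23000.0 CPM with TGFb1 and 55600.0 to 61900.0 CPM in CAF with siHsp90aa1. Thy1 and Lum, however, were scarcely detected in NF. Their highest NF group means were 0.285 and 0.0348 CPM, against lowest CAF group means of 190 and 0.396 CPM. Of 7 epithelial markers 3 passed, with sums of 0.4 to 1.62 CPM in NF and 5.02 to 22.2 CPM in CAF. The sums of 6 endothelial markers were 0.553 to 2.74 CPM in NF and 3.85 to 15 CPM in CAF. Those of 6 immune markers were 2.41 to 8.5 CPM and those of 5 pericyte markers 7.08 to 24.7 CPM over all groups. Of 5 markers of the trophoblast giant cell, the main proliferin source in the placenta, 0 passed, and their sum was at most 0.0588 CPM. Hand1, Ctsq and Prl3b1 of this list, and the T cell marker Cd3e, had no count in any library. The fibroblast sum consists mostly of the collagen genes Col1a1 and Col1a2, and its members did not move together. With TGFb1 in NF 4 of the 9 rose and 2 fell, against 14.6% and 14.4% of all genes tested. Between CAF and NF 7 were higher and 1 lower, against 31.6% and 30.0%. Thy1 and Lum passed the filter through CAF, where they were higher, so a higher call in CAF was favoured for them. Dcn fell with TGFb1 from 397 to 129 CPM and Pdgfra from 764 to 263 CPM, as the proliferin pair did, and Dcn was also lower in CAF, at 16.7 CPM. With siHsp90aa1 in NF the sum, at 17500.0 to 23700.0 CPM, overlapped that with TGFb1 alone. Dcn (267 CPM) and Pdgfra (614 CPM) rose and 0 of the 9 fell, against 14.8% and 13.5% of all genes tested. The larger epithelial and endothelial sums in CAF came mainly from Krt19, which went from 0.216 CPM in NF with vehicle to 13.5 CPM in CAF controls, and Kdr, from 0.181 to 4.28 CPM, while Krt14 was lower in CAF. The part of these shifts in the results was not tested.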

How the data were processed

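The authors deposited estimated counts per gene, made with Salmon and STAR on GRCm38 per the submitters' processing notes (versions not given in the sources used here). These expected counts were not normalised, 10.9% of them were not whole, and they were rounded here. TPM values, scaled by transcript length, were deposited by the authors too and were used to compare Prl2c2 with Prl2c3 and, as log2(TPM + 1), in a limma 3.58.1 alternative. Libraries were stranded mRNA libraries (TruSeq), with RNA taken 48 h after transfection.

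The test was edgeR 4.0.16's quasi-likelihood F test (R 4.3.3). Genes were kept by filterByExpr at a minimum count of 10 and a minimum total of 15, libraries were scaled by TMM, and the 21 libraries entered a single model with a coefficient for each group. The p-values were adjusted by Benjamini-Hochberg over 15230 genes, and a gene passed under 0.05. A second fit replaced both proliferin rows by their sum (15229 genes). The SE is the size of the log2 fold change over the square root of F. Members were tested in 15 fits of gene or sum by comparison. The test was tried on simulated data.

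The proliferin genes, gene lists, markers and motifs were chosen with earlier results of these data known. Named genes are the proliferin genes and their paralogs, the HSP90 genes, the 10 nearest profiles (prior count 2), tested genes within 500 kb, and list members with the smallest p-values. Alternatives were DESeq2 1.42.0, no TMM, other filters (none, or at least 1 CPM in 3 libraries), only the compared groups, a replicate block and leaving out each library. The labels give equal replicate numbers as a batch, which pairs the libraries. Over 15230 genes, 41 of 63 pairs of equal number had deviations correlated above 0.1, with a mean of 0.156 against -0.0778 for other numbers. Replicates differed by a chi-square of 17.5 to 154 per degree of freedom, so precision was limited by the spread between libraries more than by depth.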

Additional observations from a re-analysis of the deposited data

Results flagged for a closer look

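The response to siHsp90aa1 had opposite signs in the lines, with all 3 NF pairs of equal replicate number higher and all 3 CAF pairs lower. The NF log2 fold change minus that of CAF was 3.43 for Prl2c2, 3.8 for Prl2c3 and 3.53 for their sum. The difference was not tested, because the genes were chosen for it, and TGFb1 was present in NF and absent in CAF.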

How the results depend on the processing

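Every call of Prl2c2, Prl2c3 and their sum kept its direction and its side of the threshold under each alternative run. With TGFb1 in NF the leave-one-out range was -3.16 to -2.46 for Prl2c2 and -2.62 to -1.82 for Prl2c3, with edgeR adjusted p from 0.00195 to 0.0133 for the latter. For CAF against NF it was -2.57 to -2.23 for Prl2c2, and Prl2c3, never called, ran from -0.49 to 0.026. Other values that were not called changed sign when 1 library was left out. With siHsp90ab1 in NF the ranges were -0.0272 to 0.67 for Prl2c2, -0.0292 to 0.77 for Prl2c3 and -0.0275 to 0.68 for the sum, the low ends without replicate 3 of NF with TGFb1. In CAF they were -0.17 to 0.39 for Prl2c2 and -0.30 to 0.29 for the sum, and for CAF minus NF -0.51 to 0.19 and -0.64 to 0.091. With the replicate block the log2 fold change under TGFb1 was -2.94 for Prl2c2 (edgeR adjusted p = 1.76e-07) and -2.21 for Prl2c3 (edgeR adjusted p = 6.78e-06), and the block changed no call of either gene. Over the 5 gene lists, siHsp90ab1 calls in NF went from 1 to 2 with the block. In CAF they went from 0 to 1 with the block and from 0 to 1 with DESeq2. AP-1 calls with the block were 3 higher and 1 lower under TGFb1, 4 higher and 4 lower for CAF against NF, and 0 higher and 1 lower with siHsp90aa1 in NF. The share of all genes called with the block was not counted, so these counts are no result about AP-1 genes. Prl2c5 lost its siHsp90aa1 call in NF without a filter on low counts, and in CAF without that filter and with DESeq2. The cause of these shifts was not tested.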
